A study of Mus musculus with 10 samples.

Results

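C1galt1 and 9 other genes of mucin-type O-glycan synthesis were followed in the livers of mice that carry human APOE4 or human APOE3 in place of mouse Apoe. The 10 genes are C1galt1, C1galt1c1, Galnt1, Galnt2, Galnt4, Galnt10, Galnt11, Gcnt1, Gcnt2 and St3gal1, of 18193 genes that the platform annotation names by a single symbol. Every probe set with exactly one of these symbols was taken, whatever its level, which gave 30 of 45037 probe sets. C1galt1 was chosen by its log2 difference between APOE4 and APOE3 on these arrays, and the other members were added around it by pathway with results of the same arrays known. Differences between genotypes are therefore given for these genes as a description with their standard errors, and counts from the fit over all probe sets are printed only beside the share of all probe sets and support nothing.

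Total liver RNA of 10 female animals was hybridised, 1 array per animal, 5 with APOE4 and 5 with APOE3. The APOE4 mice were homozygous for the B6.129P2-Apoetm3(APOE*4)Mae replacement and the APOE3 mice for B6.129P2-Apoetm2(APOE*3)Mae, so no group kept mouse Apoe, and the human genes stood under the mouse Apoe promoter. Both groups were 3 months old, of strain C57BL/6, and ate a butter fat diet with 2 g/kg cholesterol, 41% of whose energy was milk fat. Its duration is stated once as 6 weeks and once as 2 months. There was no group on another diet and none with mouse Apoe.

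Mucin-type O-glycans are sugar chains attached to serine and threonine in the Golgi. A family of polypeptide GalNAc transferases (the Galnt genes) adds the first sugar, N-acetylgalactosamine; the enzyme encoded by C1galt1 then adds galactose, which makes the core 1 disaccharide. The enzyme folds only with the help of its chaperone Cosmc, encoded by C1galt1c1. Core 1 is then branched by N-acetylglucosaminyltransferases such as the core 2 enzyme Gcnt1, or capped with sialic acid by St3gal1. In plasma and on hepatocytes such glycans sit on apolipoproteins, on LDL receptor family proteins and on many secreted liver proteins.

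C1galt1 lies on chromosome 6. The stretch just before its annotated start is shown because C1galt1 is the gene with the largest difference among the 10. It is the RefSeq sequence of GRCm38.p6, chr6:7844974-7845223 on the plus strand, with the GC box letters GGGCGG, or CCGCCC on the other strand, in capitals.
C1galt1: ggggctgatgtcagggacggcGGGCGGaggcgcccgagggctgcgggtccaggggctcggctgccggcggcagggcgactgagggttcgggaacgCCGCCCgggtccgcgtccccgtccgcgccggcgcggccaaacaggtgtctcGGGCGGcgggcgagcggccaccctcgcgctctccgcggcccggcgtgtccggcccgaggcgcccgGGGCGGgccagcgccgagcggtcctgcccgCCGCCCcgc
These 250 bases held 5 such matches over both strands, and 32.7% of 32851 annotated promoter windows of the same length held at least 1. G and C made up 82.8% of the bases, against a median of 52.4% over all windows, and 44 CG dinucleotides were present, against a median of 6. Neither TATAAA (in 12.4% of the windows) nor CCAAT (in 33.8%) was found on either strand. The arrays measure the transcript and not this region.

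C1galt1 was lower in APOE4 livers by one of its 3 probe sets, lower near background by another, and slightly higher by the third. Probe set 1428490_at read 5.64, 5.91, 6.41, 5.86 and 5.90 log2 in the 5 APOE4 livers, against 7.54, 7.45, 7.70, 6.40 and 7.71 in the 5 APOE3 livers. All but 1 of the APOE3 livers were above every APOE4 liver; APOE3 replicate 4 lay 0.01 below APOE4 replicate 3, so the groups overlapped. The means were 5.94 ± 0.28 in APOE4 and 7.36 ± 0.55 in APOE3 (SD, n = 5 each), a log2 difference of -1.42 (SE 0.24), or 2.67-fold lower in APOE4. That is the 24th largest difference by size among 14732 tested probe sets, and it is the value for which the gene was picked.

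Probe set 1450745_at, also well above the floor, read 5.77, 5.69, 6.02, 5.82 and 5.55 in APOE4 livers, against 5.36, 5.54, 5.89, 5.43 and 5.68 in APOE3 livers. Its groups overlapped, and the difference had the other sign, 0.19 (SE 0.12). The third probe set, 1422772_at, read 3.23, 3.05, 3.64, 3.24 and 3.09 in APOE4 livers, against 3.92, 3.85, 4.21, 3.84 and 3.91 in APOE3 livers. Here every APOE4 liver was below every APOE3 liver, by a log2 difference of -0.70 (SE 0.12). Only 1 of these 10 values reached 4, the level under which values have no sure scale, so no fold is given for it. Over all 45037 probe sets 1.87% had groups that did not overlap, and over the 30305 untested ones 1.8%.

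The 2 stronger C1galt1 probe sets were set against each other on each array. The value of 1428490_at minus that of 1450745_at was 0.17 ± 0.21 log2 in APOE4 livers (SD, n = 5), from -0.12 to 0.39, and 1.78 ± 0.48 in APOE3 livers (SD, n = 5), from 0.97 to 2.19. Probe sets bind their targets unequally, so the size of this gap on 1 array has no meaning. Its change between genotypes only restates the differences of the 2 probe sets, -1.42 and 0.19. The first of these is the value for which the gene was picked, so the gap adds no independent support. Which stretch of the transcript each probe set reads was not analysed here. Probe sets 1428490_at, 1450745_at and, near background, 1422772_at differed by -1.42, 0.19 and -0.70. A change of the C1galt1 transcript as a whole is thus not shown by these arrays.

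**Figure D1:**
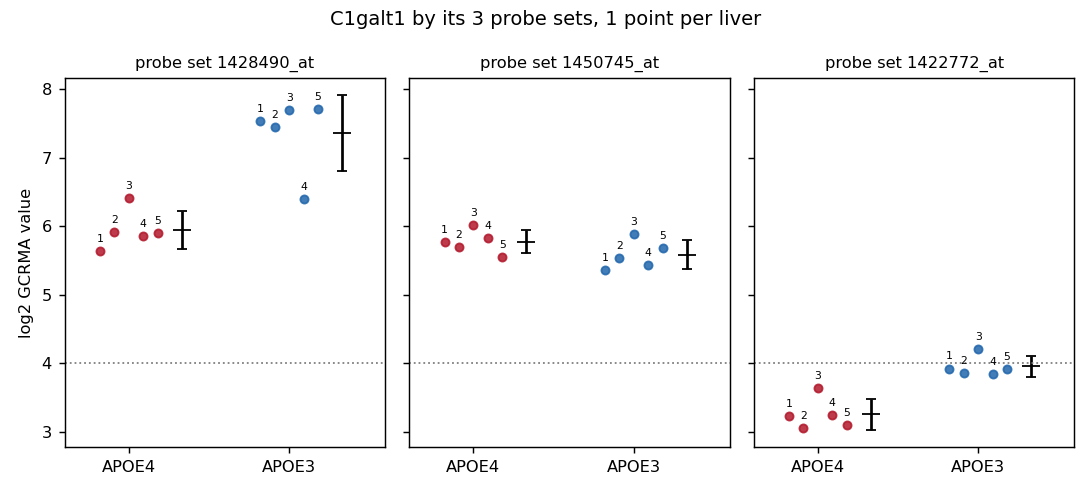
C1galt1 log2 GCRMA values (y axis) in APOE4 and APOE3 livers by its 3 probe sets; points are livers, numbered by replicate, bars show the mean and 1 SD (n = 5), and the dotted line marks 4, under which values have no sure scale. By 1428490_at APOE4 livers average 5.94 and APOE3 livers 7.36, by 1450745_at the groups overlap, and by 1422772_at all APOE4 livers lie below the APOE3 livers.

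C1galt1c1, the chaperone gene on the X chromosome, did not share this pattern. Probe set 1416655_at read 9.24, 9.57, 9.82, 9.95 and 9.64 log2 in APOE4 livers, against 9.64, 9.78, 10.03, 9.31 and 9.81 in APOE3 livers. The lowest liver of each genotype, APOE4 replicate 1 and APOE3 replicate 4, were about equal, and the groups overlapped over nearly their whole range. The difference was -0.07 (SE 0.16). Its other probe set stayed between 2.01 and 2.25 in APOE4 livers and between 1.93 and 2.32 in APOE3 livers.

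Of the GalNAc transferases that start the chain, Galnt1, Galnt2 and Galnt4 were detected in every liver, and all 5 of their tested probe sets had small positive differences. Galnt1, which encodes a broadly expressed enzyme, read 7.96, 8.48, 8.35, 8.44 and 8.20 log2 in APOE4 livers by probe set 1423236_at, against 8.24, 8.05, 8.27, 8.32 and 8.23 in APOE3 livers. Its difference was 0.06 (SE 0.11), and by 1423237_at it was 0.16 (SE 0.12), with overlapping groups in both.

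Galnt2, whose human counterpart glycosylates apolipoprotein C-III, read 8.24, 8.48, 8.23, 8.49 and 8.43 in APOE4 livers by probe set 1452182_at, against 8.32, 7.97, 8.31, 8.32 and 8.34 in APOE3 livers. The difference was 0.12 (SE 0.10), and 0.28 (SE 0.19) by the dimmer 1426756_at. Galnt4, which prefers substrates that already carry GalNAc, read 8.00, 8.39, 8.37, 8.50 and 8.17 in APOE4 livers by 1455915_at, against 8.14, 8.01, 8.15, 8.14 and 8.09 in APOE3 livers, a difference of 0.18 (SE 0.11). In Galnt4 the 4 highest livers were APOE4 livers and the lowest was one too. The median difference over all 14732 tested probe sets was itself 0.0467, and 60.9% of them had a positive difference; with each array centred on its median the 5 differences lay between 0.01 and 0.22.

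Among APOE3 livers, replicate 2 was the lowest by each of these 5 Galnt probe sets. It read 6.57 by Galnt1 1423237_at while the remaining APOE3 livers read 7.05 to 7.17, and 7.97 by Galnt2 1452182_at while they read 8.31 to 8.34. Without that liver the 5 differences lay between 0.02 and 0.16. No APOE4 liver was lowest by all 5, though APOE4 replicate 1 was lowest of its genotype by Galnt1 1423236_at and by Galnt4.

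Galnt11, whose enzyme glycosylates the linkers of LDL receptor family proteins, was close to the floor. It read 4.71, 5.10, 4.16, 4.51 and 4.42 in APOE4 livers by 1424748_at, against 4.75, 4.65, 4.68, 4.61 and 4.53 in APOE3 livers. The APOE3 livers lay within the range of the APOE4 livers, and the difference was -0.07 (SE 0.15). Galnt10, another enzyme that prefers already glycosylated substrates, had 3 probe sets, all under 4 on all 10 arrays, between 1.98 and 3.38 in APOE4 livers and between 1.89 and 3.30 in APOE3 livers. Its transcript was not detectable at this level by these probe sets, which does not show that it is absent.

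The branching genes differed in whether they were measured. Gcnt1, the core 2 enzyme, was under 4 on all arrays by both probe sets, from 1.89 to 3.19 in APOE4 livers and from 1.96 to 3.04 in APOE3 livers. Gcnt2, which makes the I-type branches of poly-N-acetyllactosamine chains, was well above the floor by 1 of its 8 probe sets. By 1425503_at it read 8.76, 9.08, 8.59, 8.65 and 8.55 in APOE4 livers, against 8.68, 9.32, 8.41, 8.67 and 9.02 in APOE3 livers. APOE3 livers spanned the whole range of the APOE4 livers, and the difference was -0.10 (SE 0.17). The other 7 Gcnt2 probe sets stayed between 0.54 and 3.49 in APOE4 livers and between 0.94 and 3.74 in APOE3 livers.

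St3gal1, the sialyltransferase that caps core 1, varied most between livers of a genotype among the members, together with C1galt1. By 1418946_at it read 8.05, 6.74, 8.05, 7.53 and 7.69 in APOE4 livers, against 7.0, 7.17, 7.60, 7.66 and 7.46 in APOE3 livers. The 2 highest livers and the lowest one all carried APOE4, and the difference was 0.23 (SE 0.24). Its within-genotype SD of 0.429 exceeded that of 87.4% of the tested probe sets, and the SD of 0.435 of C1galt1 by 1428490_at exceeded that of 87.9%. The SDs of Galnt2 by 1452182_at and of Galnt4 by 1455915_at, 0.144 and 0.146, exceeded those of only 16.6% and 17.6%. A smaller number of cells that express a gene and less of its RNA per cell cannot be told apart in these bulk samples.

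**Figure D2:**
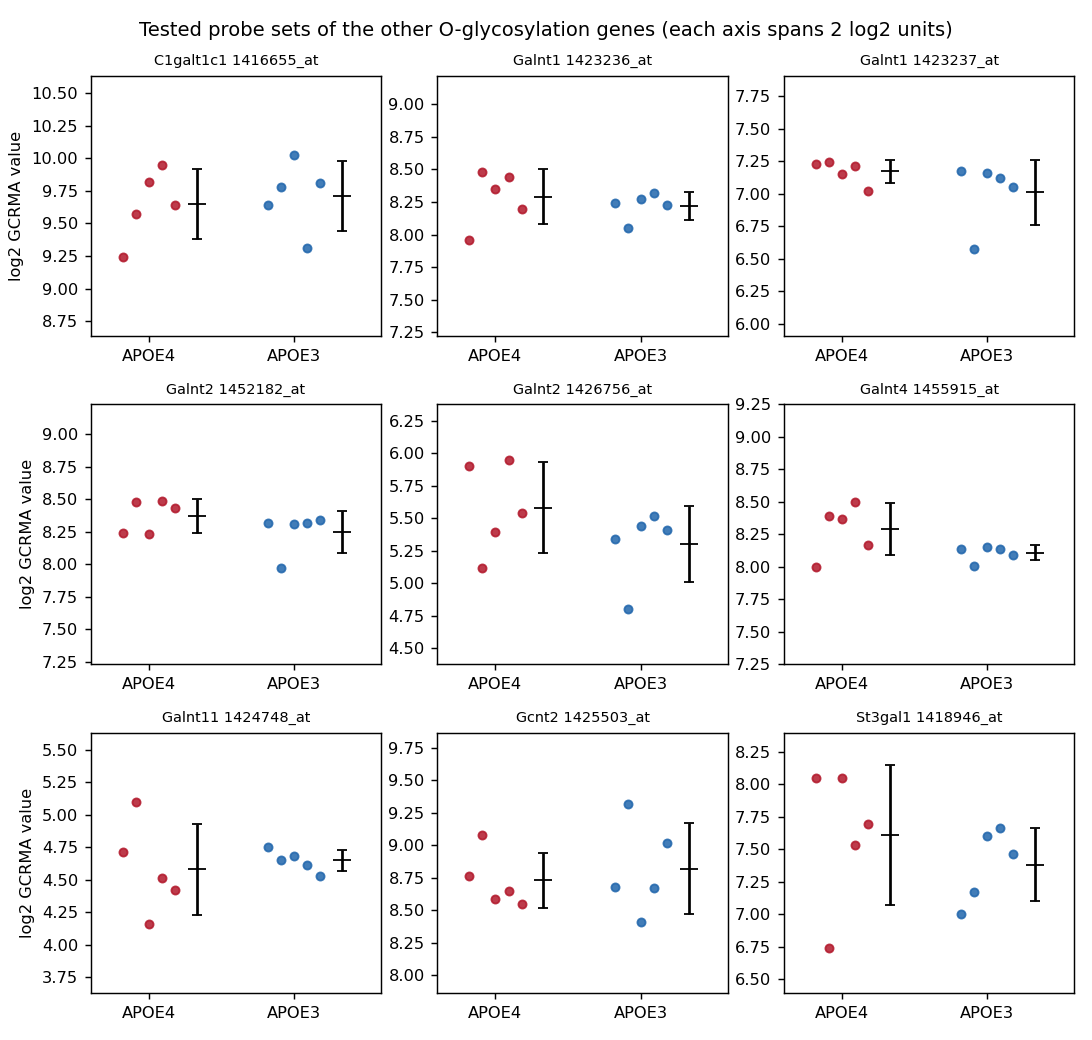
Log2 GCRMA values (y axis, each panel spanning 2 log2 units) of the 9 tested probe sets outside C1galt1 in APOE4 and APOE3 livers, with 1 point per liver and the mean and 1 SD beside them (n = 5). The groups overlap in every panel, APOE3 replicate 2 lies low in the Galnt1 and Galnt2 panels, and St3gal1 spreads most.

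Counted over the pathway, 11 of the 30 probe sets averaged 4 or more on the log2 scale across the 10 arrays and entered the fit; they cover 8 of the 10 genes, all but Galnt10 and Gcnt1. None of the 11 passed an adjusted p of 0.05 in limma, where 0.0815% of all tested probe sets did and 0.0475% did with lower values in APOE4. One, C1galt1 by 1428490_at, had an unadjusted p under 0.05, where 8.0% did. None of the 11 had groups that did not overlap, where 2.02% did and 0.563% did with lower values in APOE4. Of the 11, 7 had a positive difference and 4 a negative one. Their median difference was 0.121, beside 0.0467 over all tested probe sets, and their median absolute difference 0.157, beside 0.122. Apart from 1428490_at no tested member differed by more than 0.279. Since this contrast chose the gene at the centre of the list, nothing is read from these counts.

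**Figure D3:**
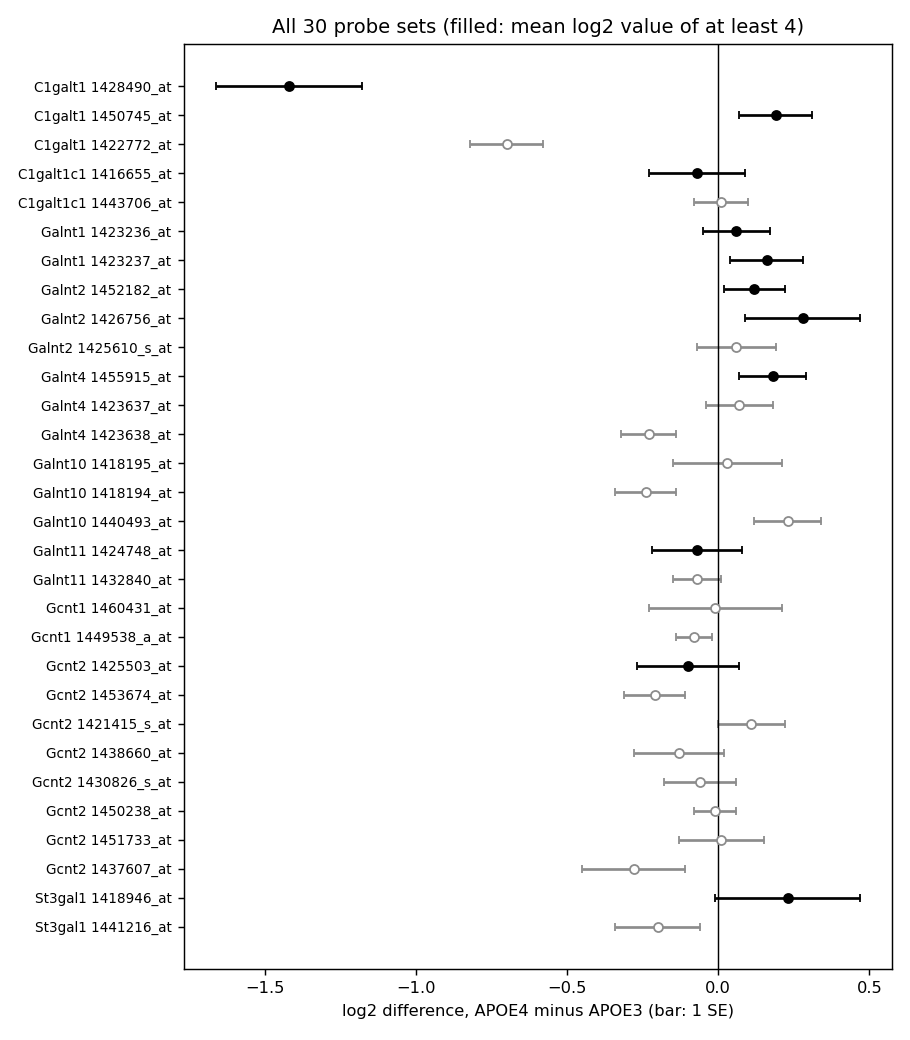
Log2 difference, APOE4 minus APOE3 (x axis), of all 30 probe sets of the 10 genes, with 1 SE; filled points are the 11 averaging 4 or more over the arrays and open points the 19 below that. C1galt1 1428490_at stands at -1.42 and 1422772_at at -0.70, while the remaining probe sets lie between -0.28 and 0.28.

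One liver bears on the C1galt1 values. APOE3 replicate 4 read 6.40 by 1428490_at, against 7.45 to 7.71 in the other APOE3 livers. The same liver read 9.99 log2 for the macrophage receptor gene Marco. For Marco the APOE4 livers spanned 2.66 to 4.73 and the remaining APOE3 livers 2.80 to 6.62. It was under 4 in 4 of 5 APOE4 livers and in 3 of 5 APOE3 livers. The size of its difference and its part in the marker mean given next thus have no sure scale. Over the 6 Kupffer cell markers the mean level lay between 8.00 and 8.92 in APOE4 livers and between 8.27 and 10.32 in APOE3 livers, and 0 of 6 had a positive difference. Without this liver Clec4f and Csf1r were at 0.03 and 0.14, and Cd5l and Vsig4 at -0.04 and -0.10. Adgre1 was at -0.11 where it had been at -0.49. Marco, near the floor, was at -0.72 (SE 0.72) where it had been at -1.90 (SE 1.19). The C1galt1 difference without APOE3 replicate 4 was -1.65 (SE 0.15), larger than with that liver, and 1428490_at then passed the adjusted threshold. Since the liver was singled out for its low C1galt1 value, that pass supports nothing, and leaving out any other single liver gave differences from -1.53 to -1.33 that did not pass. Without APOE3 replicate 4 the differences of 1450745_at and of C1galt1c1 were 0.16 and -0.17.

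Mouse Apoe, replaced in both groups, was near background by its only probe set, at 1.00 to 1.19 in APOE4 livers and 0.96 to 1.12 in APOE3 livers. Hepatocyte markers averaged 12.82 to 13.14 in APOE4 livers and 12.72 to 13.24 in APOE3 livers over 6 genes, so the labelled tissue was borne out. Over the 6 sinusoidal endothelial markers the mean level was 7.07 to 7.57 in APOE4 livers and 7.05 to 7.47 in APOE3 livers, with 3 positive differences. Of 6 stellate cell markers 4 were tested, at 9.37 to 9.76 in APOE4 livers and 9.33 to 9.73 in APOE3 livers. Single markers went opposite ways within these means: among stellate markers Rgs5 was at -0.39 and Lrat at 0.75 (SE 0.21; limma adjusted p = 0.452), and Lyve1 at 0.35 and Cdh5 at -0.34 (SE 0.12; adjusted p = 0.565 in limma) among endothelial ones. Ptprc, the pan-leukocyte gene, was at -0.41, and at -0.10 without APOE3 replicate 4. None of the 4 cholangiocyte markers was tested, and of the lymphocyte, erythroid and exocrine pancreas markers 1 each. None of the 38 marker probe sets passed the adjusted threshold. The part of these cell types in the C1galt1 values was not tested. The fit without APOE3 replicate 4 held no marker level, so it cannot address that part.

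How the members vary between livers of one genotype does not depend on the difference that chose them. With each genotype's mean subtracted, C1galt1 by 1428490_at and C1galt1c1 had a Pearson correlation of 0.75 over 10 livers (permutation p = 0.0092, two-sided; 0.064 after Benjamini-Hochberg adjustment over 7 relations). Spearman's rho was 0.62 (permutation p = 0.062, adjusted 0.43). APOE3 replicate 4 and APOE4 replicate 1 were low for both genes, and APOE3 replicate 3 was high for both. Leaving out APOE3 replicate 4 and APOE4 replicate 3, the livers farthest from the C1galt1 median, r was 0.60. The relation of the enzyme to its chaperone therefore did not pass the adjusted threshold. The 6 other members compared with C1galt1 had r between -0.24 and 0.16 (adjusted permutation p = 0.94 for each), and between -0.23 and 0.37 without the same 2 livers. These values rest on single livers: without APOE3 replicate 4 alone, C1galt1c1 had r = 0.59, Galnt1 0.52, Galnt4 0.50 and Galnt11 -0.58 (adjusted exact permutation p = 0.3 for each), so C1galt1c1 no longer stood apart from them.

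**Figure D4:**
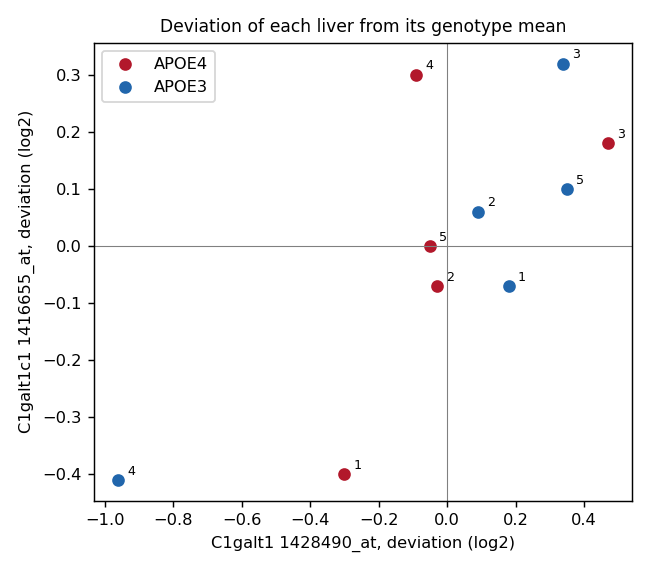
Deviation of each liver from its genotype mean for C1galt1 1428490_at (x axis, log2) and C1galt1c1 1416655_at (y axis, log2), APOE4 and APOE3 livers numbered by replicate. The Pearson correlation is 0.75 over 10 livers, with APOE3 replicate 4 at the lower left.

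The 3 C1galt1 probe sets were compared within genotypes in the same way. Probe sets 1450745_at and 1422772_at, which the platform annotation ties to 1 reference transcript while it ties 1428490_at to another cDNA, had r = 0.83 (permutation p = 0.0039, adjusted over 3 pairs 0.012; rho = 0.71, permutation p = 0.027, adjusted 0.08). Without the 2 livers farthest from the median, replicate 3 of each genotype, r was 0.43, so the relation rests on those livers. Probe set 1422772_at was under 4 in 5 of 5 APOE4 livers and 4 of 5 APOE3 livers, so nothing is concluded from its correlations. Between genotypes 1450745_at and 1422772_at went opposite ways, at 0.19 and -0.70. Probe set 1428490_at had r = 0.54 with each of these 2 probe sets (permutation p = 0.11 for each, adjusted 0.11). These 3 pairs were chosen after the values were seen.

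The genes whose deviations within genotype were most like those of C1galt1 were Trmt11, Dhx15, Ash2l, Zfp644 and Tmem184c, with r from 0.94 to 0.96 over 10 livers. They were picked as the highest of all tested genes, so the values are a description. All 5 were lowest in APOE3 replicate 4 among APOE3 livers; Zfp644, for example, read 6.16 there, against 7.05 to 7.47 in the others. Without that liver r lay between 0.74 and 0.93. Their differences between genotypes lay between -0.07 and 0.19, unlike that of C1galt1.

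The nearest tested genes of C1galt1 on chromosome 6 were set beside it, 5 on each side in RefSeq gene order. Together they span 54 annotated genes, most of them not tested. Mios, which encodes a subunit of the nutrient-sensing GATOR2 complex, is the next tested gene after C1galt1. It read 4.64, 4.97, 5.14, 5.08 and 5.16 log2 in APOE4 livers, against 5.33, 5.98, 5.50, 5.66 and 5.71 in APOE3 livers. Every APOE4 liver was below every APOE3 liver, and the difference was -0.64 (SE 0.14; adjusted p = 0.392 in limma). Umad1, the third tested gene after C1galt1, read 8.75, 9.20, 9.13, 9.07 and 8.91 in APOE4 livers, against 9.95, 9.76, 9.40, 9.22 and 9.78 in APOE3 livers. Its groups stood apart by only 0.02, with a difference of -0.61 (SE 0.15; adjusted p = 0.404 in limma).

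The remaining 8 neighbours had positive differences and overlapping groups. Rpa3, a subunit gene of the single-strand DNA-binding replication protein A, lies between Mios and Umad1 and was at 0.66 (SE 0.40), a value that became 0.26 without APOE3 replicate 4, which read 5.59 where the APOE4 livers spanned 7.26 to 8.14 and the remaining APOE3 livers 7.28 to 8.18. Pdk4, the pyruvate dehydrogenase kinase gene 4 tested genes before C1galt1, was at 1.39 (SE 0.63), with SDs of 0.85 in APOE4 and 1.41 in APOE3. Sdhaf3, Sem1, Slc25a13 and Pon2 on the same side lay between 0.06 and 0.23, and A430035B10Rik and Glcci1 beyond Umad1 at 0.44 and 0.24. None of the 10 neighbours passed the adjusted threshold, and 3 had an unadjusted p under 0.05 (8.0% of all tested probe sets did). In 2 the groups did not overlap (2.02% of all tested probe sets), both with lower values in APOE4 (0.563%). Positive differences made up 8 of the 10, beside 60.9% of all tested probe sets. Over the 431 tested genes of chromosome 6 the median difference was 0.0476.

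**Figure D5:**
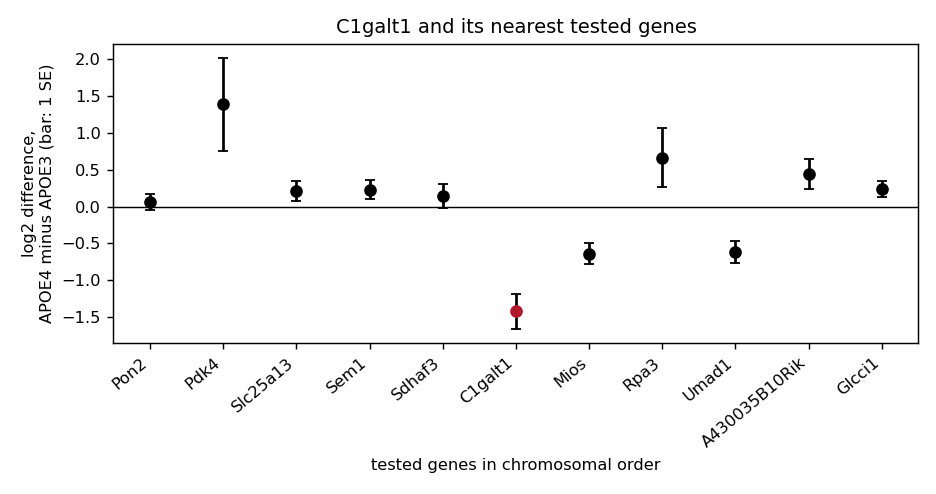
Log2 difference, APOE4 minus APOE3, with 1 SE (y axis) for C1galt1 1428490_at (red) and its 5 nearest tested genes on each side in chromosomal order (x axis). C1galt1 at -1.42, Mios at -0.64 and Umad1 at -0.61 are the 3 negative values, and the other 8 are positive.

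The other genes of the pathway were taken from 6 lists with 73 genes, of which 67 were named on the array and 32 had a tested probe set. None of their 52 tested probe sets passed the adjusted threshold in limma in either direction, and 4, or 7.69%, had an unadjusted p under 0.05, near the 8.0% of all tested probe sets. The smallest adjusted p in limma was 0.455. For the list medians and signs that follow, the median over all tested probe sets was 0.0467, and 60.9% of them were positive. None of the 13 further GalNAc transferase genes on the array, among them Galnt3, Galnt7 and Galnt12, had a tested probe set, so the initiating enzymes detected in these livers were Galnt1, Galnt2, Galnt4 and, near the floor, Galnt11.

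In the list of core 2, core 3 and chain extension enzymes, 3 of 9 genes were tested, 1 positive and 2 negative, with a median of -0.0572. B4galt1, a galactosyltransferase that builds N-acetyllactosamine, was at 0.28 (SE 0.12; adjusted p = 0.593 in limma), B3gnt2 at -0.10 and B4galt5 at -0.06. Among sialyltransferases and capping enzymes 5 of 15 were tested, 3 positive and 2 negative, with a median of 0.235. St6gal1, which sialylates N-glycans of secreted liver proteins, was at 0.26 (SE 0.15), St3gal4 at 0.24 and St6galnac6 at -0.14.

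The supply of sugar nucleotides was measured most fully, with 12 of 14 genes tested, 8 positive and 4 negative, and a median of 0.0739. Slc35a1, the Golgi transporter of CMP-sialic acid, read 7.55, 7.82, 7.96, 8.00 and 7.72 log2 in APOE4 livers by 1417538_at, against 7.51, 7.79, 7.42, 7.34 and 7.05 in APOE3 livers. Its groups overlapped, and the difference was 0.39 (SE 0.14; adjusted p = 0.58 in limma). The second Slc35a1 probe set, 1417539_at, gave 0.42 (SE 0.12; adjusted p = 0.455 in limma). Uap1, which makes UDP-GlcNAc and UDP-GalNAc, was at 0.31 by 1416743_at but at -0.04 and -0.03 by its 2 other tested probe sets. Gnpnat1, an enzyme of the same hexosamine route, was at -0.26 (SE 0.13) by 1423156_at. Its other tested probe sets gave -0.23 (SE 0.19) and -0.07 (SE 0.10).

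Of proteins that carry O-glycans 8 of 15 were tested, 5 positive and 3 negative, with a median of 0.015. The leukocyte sialomucin gene Spn was at -0.32, Cd44 at -0.50 and Vldlr at 0.23 (SE 0.47) by 1434465_x_at. The other tested Vldlr probe sets gave 0.02 (SE 0.41) and -0.03 (SE 0.32). Without APOE3 replicate 4, Spn, Cd44 and Vldlr by 1434465_x_at were at -0.20, -0.19 and -0.16. Of lectins that bind galactose or GalNAc 4 of 6 were tested, 3 positive and 1 negative, with a median of 0.132. Asgr2, a subunit of the asialoglycoprotein receptor by which hepatocytes take up glycoproteins with exposed galactose, was at 0.25 (SE 0.13; adjusted p = 0.659 in limma), Lgals3 at -0.22 and Lgals1 at 0.33 (SE 0.79).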

How the data were processed

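Liver RNA, labelled with biotin from 2 ug of total RNA, was measured on one-colour arrays with 1 array per animal. The deposited values are log2 values that the authors made, per the submitters' processing notes, with R 2.7.1 and GCRMA 2.12.1, which corrects background by probe GC content and normalizes between arrays. Values under 4 lie near its floor and have no sure scale. The sources used here do not state any probe filter of the authors.

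Groups came from the sample titles. After removal of 64 control probe sets, the 14732 probe sets with a mean of at least 4 over all 10 arrays were fitted by lmFit and eBayes of limma 3.58.1 (R 4.3.3, two-sided), with Benjamini-Hochberg adjustment over all of them; differences of dimmer probe sets come from a fit without the filter. Depth has no meaning for arrays; their number limits the precision, and the median SE was 0.142. No 2 arrays held identical values, and the labels name 1 extract per animal. On simulated data the procedure called 28, 84, 98 and 100% of changes of 0.5, 1, 2 and 4 log2, so small changes are often missed. The simulated data gave 161 calls, against 12 in these data, so these shares need not hold here. A gene outside the members is described by its tested probe set with the highest mean. Within-genotype correlations used 100000 permutations (Python 3.11.15), and exact enumeration with 9 livers. RefSeq for GRCm38.p6 gave the gene order, and promoter sequences, found for 5 of the 10 members, from RefSeq with that build.

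Members and lists were chosen with earlier results of these data known. Named by rule were all members, up to 3 genes per pathway list with the smallest p where none passed, 5 tested neighbours of C1galt1 on each side, the 5 genes most like it within genotype, and Apoe. Alternatives were no filter, a filter at 6, trend and robust settings, renewed quantile normalization, centred arrays, a floor of 4 for dim values, a single probe set for each gene, a replicate block and leaving out each animal. The replicate numbers were not taken as pairs in the main fit. Same-numbered animals had correlations of their deviations from -0.079 to 0.414. Differently numbered animals were not compared, so these values cannot decide whether the numbers pair animals. No batch is given in the labels.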

Additional observations from a re-analysis of the deposited data

Results flagged for a closer look

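In 5 of 24 groups of 5 livers checked, 1 liver lay far from the other 4 by Dixon's criterion, which marks about 1 group in 20 by chance. C1galt1 by 1428490_at was low in APOE3 replicate 4, at 6.40 against 7.45 to 7.71. C1galt1 by 1422772_at was high in APOE3 replicate 3, at 4.21 against 3.84 to 3.92. APOE3 replicate 2 was low by 3 probe sets: Galnt1 1423237_at at 6.57 against 7.05 to 7.17, Galnt2 1452182_at at 7.97 against 8.31 to 8.34, and Galnt2 1426756_at at 4.80 against 5.34 to 5.52. All 5 such groups were APOE3 groups.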

How the results depend on the processing

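The count of members past the adjusted threshold was 0 in the 8 settings that kept all animals, and from 0 to 1 when 1 animal was left out. The 1 was C1galt1 by 1428490_at without APOE3 replicate 4. Its difference lay between -1.65 and -1.33 over all settings, and with the replicate number as a block it was -1.42 (SE 0.20), with 0 members called. C1galt1 by 1450745_at stayed between 0.13 and 0.27. The sign of C1galt1c1, Galnt11 and Gcnt2 turned when single animals were left out (highest values 0.03, 0.04 and 0.03). No probe set of the other pathway genes passed under any of the 18 settings. Over all genes 12 probe sets were called, but 15 of 45037 without a filter, 5 with a filter at 6 and 7 with 1 probe set per gene. With the block 11 were called, and 8 to 14 when 1 animal was left out. The correlation of C1galt1 with C1galt1c1 ranged from 0.59 without APOE3 replicate 4 (adjusted exact permutation p = 0.3) to 0.88 without APOE4 replicate 4 (adjusted exact permutation p = 0.0065), the one fit in which it passed; the cause was not tested. Values under 4 limit Galnt10 and Gcnt1 to a statement that they were not measurable.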
